A study of Homo sapiens with 12 samples.

Results

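Small leucine-rich proteoglycans, matricellular proteins and fibronectin make up much of the non-collagen matrix that cells of mesenchymal origin secrete. The 10 genes described here were chosen by symbol: the small proteoglycan genes DCN, LUM and BGN, the matricellular genes THBS1, THBS2, TNC, POSTN and SPARC, the fibronectin gene FN1 and the olfactomedin-like gene OLFML3. They are 10 of 60607 gene IDs in the count table, and all 10 were among the 17320 genes with enough counts to be tested. Messenger RNA was sequenced in 12 libraries of AC16 cells, a human hybrid line of ventricular heart cells and transformed fibroblasts, to follow doxorubicin-induced heart toxicity over time. There were 4 groups of 3 libraries, all of genotype WT: control cells in DMEM, and cells given 0.1 µM doxorubicin, an anthracycline drug that poisons topoisomerase II, for 2, 4 or 6 days. The sample titles give the exposures as 48, 96 and 112 hours, so that the longest one is 6 days in the design and 112 hours in the titles, and they add day 6 for every library, controls included. It is not said whether each exposure ended at harvest. Here day 2, day 4 and day 6 name the groups by length of exposure, not by the day of harvest.

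Decorin, lumican and biglycan are short leucine-rich core proteins that bind collagen fibrils and, for decorin and biglycan, carry chondroitin or dermatan sulfate chains. Matricellular proteins are secreted into the matrix but act mainly on cells, through integrins, syndecans, CD36 or CD47, and are known for their rise in wounds and in the injured heart. Fibronectin is assembled by integrins into the first fibrils of a new matrix, on which collagens and matricellular proteins are then laid down.

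Total counts lay between 14835743 and 21226441 per library. Of all tested genes, 47.2% changed at day 2, 36.5% at day 4 and 43.7% at day 6 against the control (edgeR quasi-likelihood test, with p adjusted after Benjamini-Hochberg over the 17320 genes and a threshold of 0.05 throughout). The label calls the cells cardiomyocytes, but 10 of 14 cardiomyocyte markers had under 10 counts in every library, MYL2 had 0 counts in all of them and TTN, the most abundant, averaged 11.3 to 16.7 CPM per group. All 10 fibroblast markers were tested, and their summed level was 7487 to 8196 CPM in control, 11516 to 11847 at day 2, 10038 to 10540.3 at day 4 and 8578 to 9038 at day 6, with 8, 3 and 3 of them higher than in control at day 2, 4 and 6 and 0, 4 and 5 lower. VIM was the largest part of the sum at day 4 and day 6, at 4707 and 4026 CPM against 2133 CPM in control. The collagen markers COL1A1, COL1A2 and COL3A1 averaged below their control levels at day 6. Control replicate 2 and day 2 replicate 3 stood apart from their groups in the share of mitochondrially encoded counts (8.26% and 5.51%, against group medians of 6.75% and 7.62%). The labels do not say whether replicate libraries are separate cultures, so the p-values reflect spread among these 12 libraries that could be technical. Levels are normalised CPM, counts scaled to library size with TMM factors, and changes are log2 fold changes ± SE.

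Each of the 10 genes differed among the 4 groups (adjusted p between 1.78e-15 and 4.27e-06), where 63.4% of all tested genes did. At day 2, 7 of the 10 rose and 2 fell against the control, where 23.8% of all genes rose and 23.4% fell. At day 4, 5 rose and 4 fell (background 18.8% and 17.7%), and at day 6, 4 rose and 4 fell (22.0% and 21.7%). The libraries of exposed and control cells did not overlap for 10 of the genes at day 2, 9 at day 4 and 8 at day 6, compared with 52.2%, 44.6% and 50.9% of all genes. Being bulk samples, they cannot tell fewer cells of a type from less RNA per cell. The median log2 fold change of the 10 genes was 0.73, 0.19 and 0.16 at day 2, day 4 and day 6, beside -0.013, -0.0028 and -0.0061 for all genes.

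**Figure D1:**
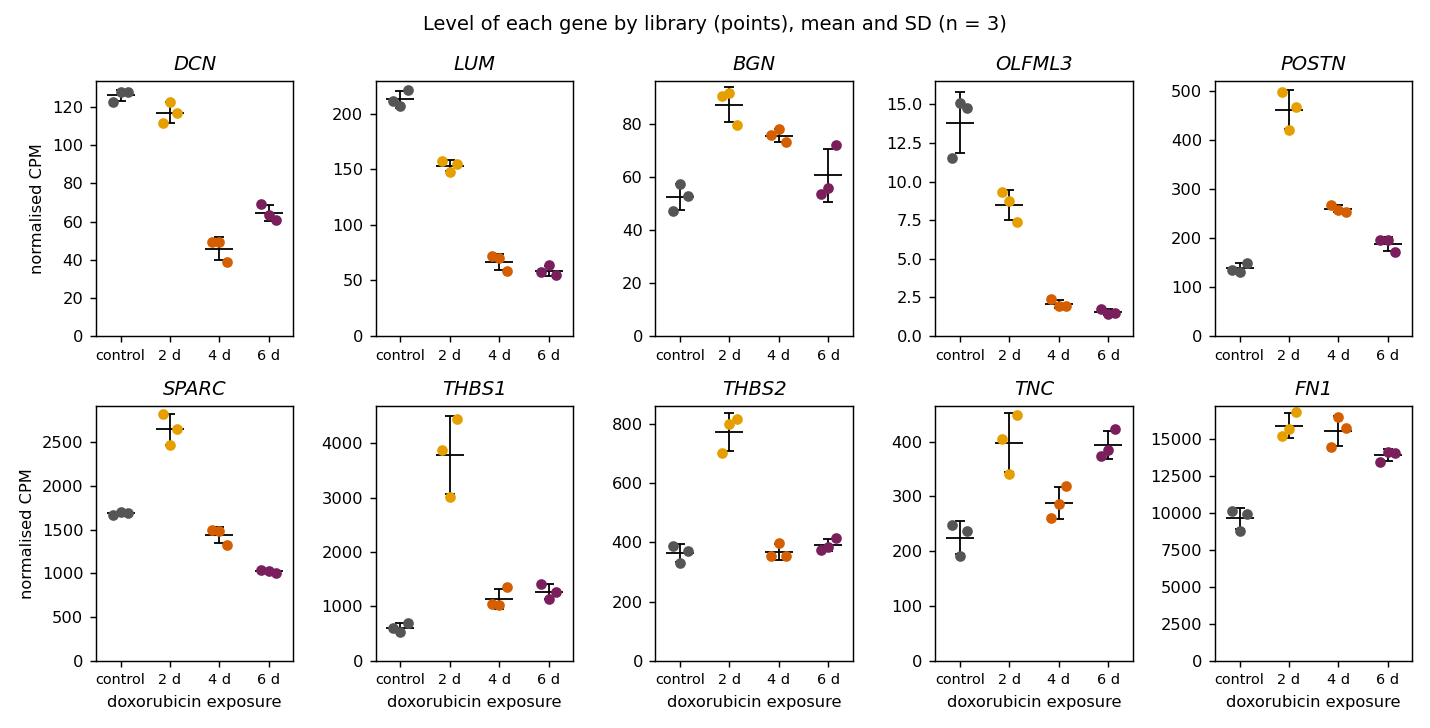
Normalised CPM (y axis, from 0, a scale of its own in each panel) of the 10 genes in every library by exposure (x axis), with the mean and SD of 3 libraries as bars. DCN, LUM and OLFML3 were highest in control and lowest at day 4 or day 6, while the other 7 genes had their highest mean at day 2.

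Promoter sequences are shown for THBS1 and POSTN, the genes with the largest rises at day 2, and for OLFML3, which fell the furthest at day 4 and day 6, so that the letters before genes that moved in opposite directions can be compared. They are RefSeq sequences of GRCh38.p14, 5′ to 3′ on the gene's own strand, cut where the first annotated exon of any transcript begins. Capitals mark matches, on either strand, to the motifs named after them. THBS1 is shown for chr15:39580829-39581078 (plus strand), POSTN for chr13:37598845-37599018 (minus strand) and OLFML3 for chr1:113979224-113979390 (plus strand).
THBS1: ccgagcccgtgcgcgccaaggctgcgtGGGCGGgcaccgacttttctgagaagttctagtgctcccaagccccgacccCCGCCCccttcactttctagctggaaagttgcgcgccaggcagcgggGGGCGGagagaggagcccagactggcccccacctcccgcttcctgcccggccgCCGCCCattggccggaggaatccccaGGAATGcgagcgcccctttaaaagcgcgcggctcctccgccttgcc
POSTN: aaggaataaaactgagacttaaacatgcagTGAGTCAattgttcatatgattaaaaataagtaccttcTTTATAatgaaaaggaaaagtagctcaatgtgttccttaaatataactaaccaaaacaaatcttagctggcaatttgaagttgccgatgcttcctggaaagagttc
OLFML3: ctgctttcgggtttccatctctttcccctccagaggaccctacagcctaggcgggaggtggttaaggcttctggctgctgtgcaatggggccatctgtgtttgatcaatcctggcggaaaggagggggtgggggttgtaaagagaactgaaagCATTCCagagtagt
Motifs were sought in the 250 bases before the RefSeq start of 27305 genes, 8 of the 10 genes among them (all but DCN and LUM). The GC box GGGCGG stood before 5 of these 8 genes (BGN, THBS1, TNC, FN1 and OLFML3) and in 42.3% of all promoters. A TEAD-type motif, GGAATG, stood before SPARC, THBS1, THBS2 and OLFML3, which is 4 of 8, and in 11.9% of all promoters. It was thus found before THBS1, which rose at every exposure, and before OLFML3, which fell at every exposure. The TATA box TATAAA was found before POSTN and THBS2 (11.1% of all promoters), and the AP-1 motif TGACTCA before POSTN (4.16%). No CArG box was found before any of the 8, and 1.14% of all promoters had one. No motifs overlapped among those shown. POSTN and THBS2 each had a TATAAA that began 29 bases before the start, which for POSTN lies outside the stretch printed. The GC box of OLFML3, 52 to 47 bases before the start, also lies outside its printed stretch, which ends 83 bases before the start. These matches describe letters in a window and say nothing of which factors bind.

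Among the small proteoglycans, DCN and LUM were lower at the longer exposures and BGN was higher at day 2 and day 4. DCN encodes decorin, which binds collagen I and sequesters TGF-beta (ENSG00000011465.18, GRCh38 chromosome 12, 91140484 to 91183123, minus strand). Its libraries had 123, 128 and 128 CPM in control, 112, 123 and 117 CPM at day 2, 49.1, 49.3 and 38.8 CPM at day 4, and 69.3, 63.5 and 60.8 CPM at day 6. Day 2 libraries lay just under the controls, and those of day 4 and day 6 were far below them, with day 6 above day 4. The log2 fold change was -0.11 ± 0.087 at day 2 (adjusted p = 0.327), -1.47 ± 0.091 at day 4 (2.76-fold lower, adjusted p = 2.76e-12) and -0.97 ± 0.089 at day 6 (adjusted p = 2.66e-09). DCN was 1.41-fold higher at day 6 than at day 4 (adjusted p = 0.00129). Scaled by library totals alone, under which the median log2 fold change of all genes was -0.136 at day 2, DCN was called lower at day 2 as well (-0.23, adjusted p = 0.0305).

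LUM, the lumican gene, whose product regulates fibril spacing and carries keratan sulfate in the cornea, lies next to DCN on the same strand (ENSG00000139329.5, chromosome 12, 91102629 to 91111831). It had 211, 206 and 221 CPM in control, 157, 147 and 155 CPM at day 2, 71.7, 69.9 and 58.3 CPM at day 4, and 57.5, 63.7 and 55.1 CPM at day 6. No exposed library reached the lowest control, and the libraries of day 4 and day 6 overlapped. LUM fell at each exposure, with a log2 fold change of -0.47 ± 0.083 at day 2 (adjusted p = 4.04e-05), -1.68 ± 0.086 at day 4 (adjusted p = 7.19e-14) and -1.86 ± 0.086 at day 6 (3.62-fold lower, adjusted p = 7.22e-15). The remaining 2 genes of this chromosome 12 cluster of small proteoglycans, KERA (91050491 to 91057983) and EPYC (90963679 to 91005026), had 14 and 13 counts over all 12 libraries, against 24853 for LUM and 18021 for DCN.

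BGN encodes biglycan, the nearest relative of decorin, which is also known as a signal to Toll-like receptors when it is released from matrix (ENSG00000182492.16, chromosome X, 153494939 to 153509554). Its level was 47.3, 57.3 and 52.8 CPM in control, 90.6, 91.8 and 79.8 CPM at day 2, 75.8, 78.2 and 73.3 CPM at day 4, and 53.6, 56.1 and 72.3 CPM at day 6. All day 2 and day 4 libraries were above the controls, and at day 6 a single library was. BGN rose by 0.74 ± 0.10 on the log2 scale at day 2 (1.67-fold, adjusted p = 1.76e-06) and by 0.53 ± 0.10 at day 4 (adjusted p = 0.000208). At day 6 the log2 fold change was 0.21 ± 0.10 (adjusted p = 0.0973), and it passed the threshold without control replicate 2 (0.28, adjusted p = 0.0286) or day 6 replicate 1 (0.29, adjusted p = 0.0415) and when scaled by library totals alone (0.25, adjusted p = 0.0497), while it was 0.064 without day 6 replicate 3. The change from day 4 to day 6, -0.32 ± 0.10 (adjusted p = 0.0581), lay near the threshold too, and was past it without control replicate 1 (adjusted p = 0.0454), control replicate 2 (0.0181) or day 6 replicate 3 (0.00733).

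The balance between these proteoglycans shifted within single libraries, where no scaling between libraries enters. The log2 ratio of DCN to BGN counts was 1.27 ± 0.11 in control, 0.42 ± 0.13 at day 2, -0.74 ± 0.16 at day 4 and 0.10 ± 0.32 at day 6 (SD, n = 3). DCN counts thus exceeded BGN counts in every control and day 2 library and were below them in every day 4 library, with day 6 split. As the genes differ in exon length, only the change of the ratio can be read, not its sign. Per kb of all annotated exons BGN was above DCN in every group, at 21.4 against 9.83 CPM per kb in control. With the longest coding transcript of each gene the control levels were closer, at 21.9 against 17.6 CPM per kb. Counts per gene do not show which transcripts were present, so this order holds for these lengths only. The 4 groups differed by an exact permutation test over 369600 assignments of the libraries (p = 0.00013, adjusted p = 0.000195 over 3 ratios, smallest p allowed 6.49e-05). For DCN over LUM the log2 ratio was -0.75 ± 0.055 in control, -0.39 ± 0.12 at day 2, -0.55 ± 0.042 at day 4 and 0.14 ± 0.14 at day 6, and it differed as well (exact permutation p = 6.49e-05, adjusted p = 0.000195). The pair did not change alike with the length of exposure. With TMM factors LUM was called lower at day 2 and DCN was not, and DCN was higher at day 6 than at day 4.

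**Figure D2:**
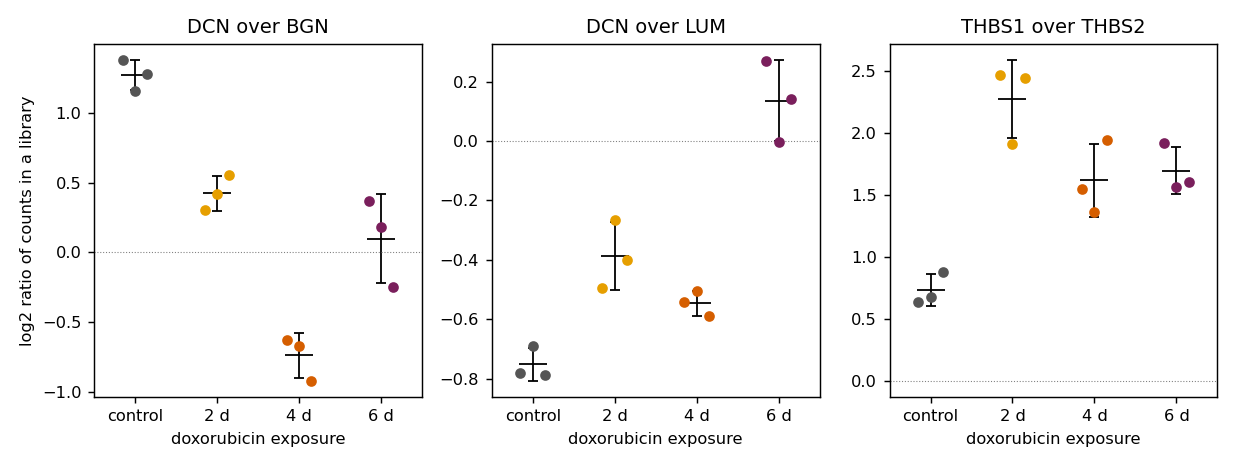
Log2 ratio of the counts of 2 genes within each library (y axis) by exposure (x axis), with points for the 3 libraries and bars for the mean and SD. DCN over BGN was lower in all 9 exposed libraries than in the controls, and THBS1 over THBS2 was higher in all 9. The genes differ in length, so the side of 0 has no meaning of its own.

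The thrombospondins rose most at day 2 and differed in what remained. THBS1 encodes thrombospondin-1, which activates latent TGF-beta and signals through CD36 and CD47 (ENSG00000137801.11, chromosome 15, 39581079 to 39599466). Its libraries had 605, 525 and 684 CPM in control, 3874, 3013 and 4437 CPM at day 2, 1034, 1022 and 1352 CPM at day 4, and 1415, 1136 and 1257 CPM at day 6. Every exposed library was above every control, and day 2 stood far above the later exposures. THBS1 rose by 2.64 ± 0.15 on the log2 scale at day 2 (6.24-fold, adjusted p = 1.12e-09), the largest rise of the 10 genes, and by 0.91 ± 0.15 at day 4 (adjusted p = 0.000151) and 1.07 ± 0.15 at day 6 (2.10-fold, adjusted p = 2.37e-05). It was 3.32-fold lower at day 4 than at day 2 (adjusted p = 2.5e-07), and its difference between day 6 and day 4 was 0.16 ± 0.14 (adjusted p = 0.578).

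THBS2, the gene of thrombospondin-2, an inhibitor of angiogenesis that lacks the TGF-beta activating sequence (ENSG00000186340.17, chromosome 6, 169215780 to 169254044), had 389, 329 and 372 CPM in control, 701, 801 and 818 CPM at day 2, 353, 398 and 353 CPM at day 4, and 375, 385 and 413 CPM at day 6. The day 2 libraries stood alone, and those of the longer exposures overlapped with control. THBS2 rose by 1.09 ± 0.084 at day 2 (2.13-fold, adjusted p = 9.6e-11). Its log2 fold changes against control were 0.018 ± 0.083 at day 4 (adjusted p = 0.892) and 0.11 ± 0.083 at day 6 (adjusted p = 0.322), and the day 4 value had no stable sign, being -0.019 when scaled by library totals alone, -0.047 without control replicate 2 and -0.038 without day 4 replicate 2. The log2 ratio of THBS1 to THBS2 counts in a library was 0.73 ± 0.13 in control, 2.27 ± 0.31 at day 2, 1.62 ± 0.29 at day 4 and 1.69 ± 0.19 at day 6 (SD, n = 3). This ratio differed among the groups (exact permutation p = 0.00162, adjusted p = 0.00162 over the 3 ratios).

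Tenascin-C, encoded by TNC (ENSG00000041982.16, chromosome 9, 115019578 to 115118257), loosens cell adhesion to fibronectin and is known to reappear around injured heart muscle. TNC had 247, 190.4 and 237 CPM in control, 406, 340.4 and 448 CPM at day 2, 261, 285 and 319 CPM at day 4, and 374, 386 and 422 CPM at day 6. All exposed libraries were above the controls, with a dip at day 4. TNC rose by 0.82 ± 0.10 at day 2 (adjusted p = 6.95e-07), by 0.36 ± 0.10 at day 4 (adjusted p = 0.00884) and by 0.81 ± 0.10 at day 6 (1.75-fold, adjusted p = 1.08e-06). It was 1.38-fold lower at day 4 than at day 2 (adjusted p = 0.00112) and 1.37-fold higher at day 6 than at day 4 (adjusted p = 0.00941). Without day 4 replicate 3 the rise at day 4 missed the threshold (0.28, adjusted p = 0.0575), and the difference between day 6 and day 4 missed it without day 4 replicate 1 (0.38, adjusted p = 0.0737) or day 6 replicate 3 (0.40, adjusted p = 0.05). Between day 6 and day 2 TNC differed by -0.015 ± 0.10 (adjusted p = 0.925), a sign that turned without day 2 replicate 3 (0.077) or day 6 replicate 1 (0.020).

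Periostin, the product of POSTN, cross-links the matrix through collagen and fibronectin and marks activated fibroblasts of the injured heart (ENSG00000133110.15, chromosome 13, 37562583 to 37598844). POSTN had 136, 130.2 and 149.7 CPM in control, 499, 419.8 and 467 CPM at day 2, 268, 258 and 253 CPM at day 4, and 196, 195 and 171 CPM at day 6. The groups formed 4 separate steps with no overlap. At day 2 it was 3.34-fold higher than in control (adjusted p = 1.52e-14), at day 4 1.88-fold (adjusted p = 3.78e-09) and at day 6 1.35-fold (log2 fold change 0.44 ± 0.083, adjusted p = 0.000137). Day 4 differed from day 2 by -0.83 ± 0.082 on the log2 scale (adjusted p = 2.06e-08) and day 6 from day 4 by -0.47 ± 0.082 (adjusted p = 0.000807).

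SPARC was the only one of the 10 genes that passed the threshold in both directions against the control. It encodes osteonectin, a calcium- and collagen-binding glycoprotein that helps procollagen to mature (ENSG00000113140.11, chromosome 5, 151661096 to 151687165). Its level was 1673, 1698 and 1695 CPM in control, 2828, 2467 and 2651 CPM at day 2, 1501, 1485 and 1329.6 CPM at day 4, and 1039, 1032 and 1009.6 CPM at day 6. Day 2 libraries were above all controls, whereas those of day 4 and day 6 were below them. SPARC rose by 0.65 ± 0.075 at day 2 (1.57-fold, adjusted p = 1.12e-07) and fell by 0.72 ± 0.075 at day 6 (1.64-fold lower, adjusted p = 2.62e-08). The fall at day 4 was 0.23 ± 0.075 on the log2 scale (adjusted p = 0.0174) and missed the threshold without day 4 replicate 3 (-0.18, adjusted p = 0.107). COL1A1, COL1A2 and COL3A1, fibroblast markers and the collagens that SPARC binds, averaged 4529, 2289 and 1191 CPM at day 2 and 2127, 1718 and 525 CPM at day 6, against 2582, 1821 and 928 CPM in control. At day 4 COL1A1, COL1A2 and COL3A1 averaged 2794, 1862 and 510 CPM. The other fibroblast markers were mixed at day 6. VIM, FAP, THY1 and TCF21 then averaged 4026, 189, 147 and 2.53 CPM, against 2133, 125, 136 and 1.45 CPM in control. PDGFRA, PDGFRB and S100A4 averaged 57.3, 23.9 and 1.36 CPM, against 81.4, 58.6 and 2.82 CPM in control. The part of fibroblast content in these changes was not tested.

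FN1 was the most abundant of the 10 genes and kept its rise. Fibronectin is the main ligand of the integrin alpha5 beta1 (ENSG00000115414.21, chromosome 2, 215360440 to 215436172). FN1 had 10116, 8794 and 9949 CPM in control, 15182, 15686 and 16844 CPM at day 2, 14468, 16484 and 15715 CPM at day 4, and 13418, 14147 and 14079.6 CPM at day 6. Every exposed library was above every control, and day 2 overlapped with day 4. FN1 rose 1.65-fold at day 2, 1.62-fold at day 4 and 1.44-fold at day 6 (log2 fold changes 0.73 ± 0.082, 0.69 ± 0.082 and 0.53 ± 0.082, adjusted p = 7.37e-08, 2.56e-07 and 9.81e-06). The difference between day 4 and day 2 was -0.032 ± 0.081 (adjusted p = 0.803) and turned positive when scaled by library totals alone (0.054), without day 2 replicate 3 (0.010) or without day 4 replicate 1 (0.018). Between day 6 and day 2 the difference was -0.20 ± 0.081 (adjusted p = 0.0547), past the threshold with DESeq2 (adjusted p = 0.0312) and without control replicate 1 (0.0493), control replicate 2 (0.0279) or day 4 replicate 2 (0.0477). Counts per gene do not separate the splice forms of fibronectin.

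OLFML3 encodes a secreted olfactomedin-like glycoprotein described in angiogenesis and early development (ENSG00000116774.12, chromosome 1, 113979391 to 114035572). It had 11.5, 15.1 and 14.8 CPM in control, 9.32, 8.76 and 7.39 CPM at day 2, 2.38, 1.92 and 1.92 CPM at day 4, and 1.77, 1.42 and 1.48 CPM at day 6. The groups stood in 4 steps, each below the last. These levels rest on 203 to 230 counts per control library and on 26 to 32 counts per day 6 library. OLFML3 fell at each exposure, with a log2 fold change of -0.70 ± 0.15 at day 2 (adjusted p = 0.000381), -2.73 ± 0.18 at day 4 (6.63-fold lower, adjusted p = 5.83e-12) and -3.15 ± 0.18 at day 6 (8.87-fold lower, adjusted p = 4.8e-13). Day 6 and day 4 differed by -0.42 ± 0.22 (adjusted p = 0.288).

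**Figure D3:**
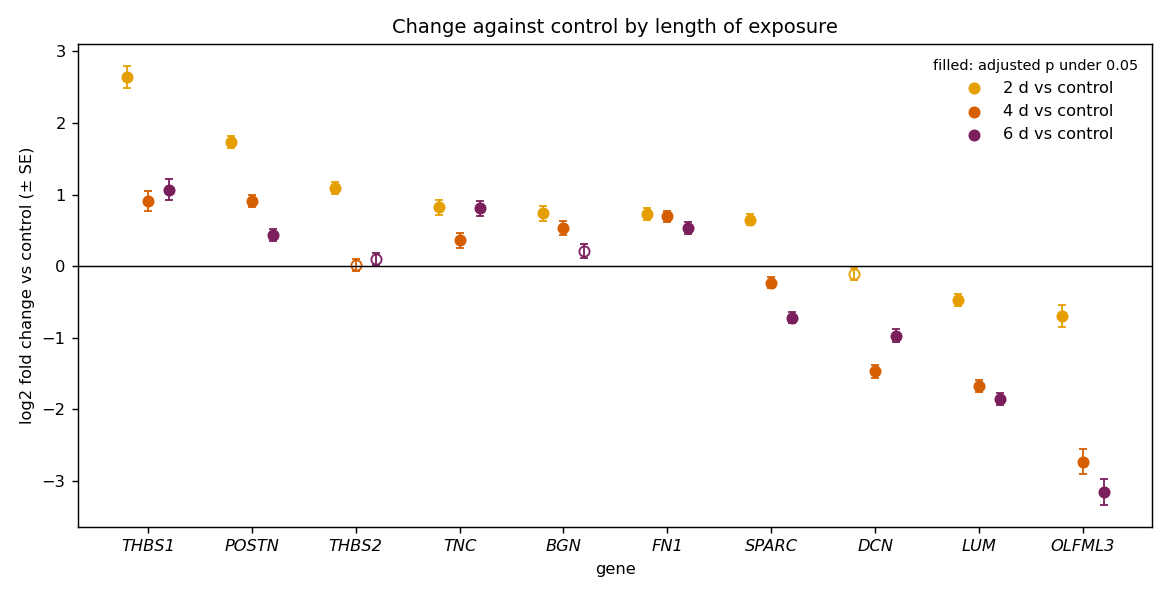
Log2 fold change against control (y axis, ± SE) of each gene (x axis) after 2, 4 and 6 days, with filled points where the adjusted p is under 0.05 and open points elsewhere. THBS1 at day 2 (2.64) and OLFML3 at day 6 (-3.15) are the extremes, and SPARC has filled points on both sides of 0.

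Between exposures, every gene of the 10 that was called different from day 2 was lower at the longer exposure. At day 4, 8 of 10 were lower than at day 2 and 0 were higher, where 34.8% of all genes changed, 18.5% lower and 16.3% higher, and the exceptions were BGN (-0.21 ± 0.10, adjusted p = 0.116) and FN1. BGN passed the threshold in a fit of those 2 groups alone (-0.21, adjusted p = 0.0488) and without the 2 libraries that stood apart in mitochondrial share (-0.27, adjusted p = 0.0274). At day 6, 8 were lower than at day 2 and 0 higher (background 23.0% and 19.8%), where 42.8% of all genes changed, and TNC and FN1 were not called. Between the day 4 and day 6 groups the genes parted: DCN and TNC were higher at day 6, and POSTN and SPARC were lower. The other 6 did not pass the threshold, where 6.78% of all genes changed (1174 genes, 3.05% higher and 3.73% lower). That background count was 1842 without control replicate 2, 572 without day 4 replicate 1, 685 without day 4 replicate 3, 611 without day 6 replicate 1 and 580 without day 6 replicate 2. Libraries did not overlap for 9 of the 10 genes between day 4 and day 2, for 9 between day 6 and day 2 and for 7 between day 6 and day 4, where 45.9%, 52.8% and 27.6% of all genes had none. These comparisons share libraries with each other and with those against the control.

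Summed over the 10 genes, the share of all counts was 1.22% to 1.39% in control, 2.17% to 2.44% at day 2, 1.81% to 1.97% at day 4 and 1.79% to 1.83% at day 6. Most of this was FN1, at 0.892% to 1.04% in control and 1.42% to 1.62% in exposed libraries. Without FN1 the other 9 genes held 0.333% to 0.363% of counts in control, 0.695% to 0.860% at day 2, 0.358% to 0.379% at day 4 and 0.344% to 0.378% at day 6. Outside FN1, the summed share thus stood above the controls at day 2 and overlapped them at the longer exposures, although single genes stayed high or low.

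Divided by the length of their exons, the control levels ran in the order FN1 (556 ± 41.6 CPM per kb), SPARC (349.6 ± 2.78), LUM (70.7 ± 2.47), THBS1 (66.1 ± 8.66), THBS2 (56.7 ± 4.79), POSTN (25.3 ± 1.84), TNC (23.3 ± 3.15), BGN (21.4 ± 2.04), DCN (9.83 ± 0.229) and OLFML3 (4.89 ± 0.703). Libraries of neighbours in this order overlapped for LUM with THBS1, THBS1 with THBS2, POSTN with TNC and TNC with BGN. At day 2 THBS1 stood in the third place with 412 ± 78.3 CPM per kb, behind FN1 (919 ± 49.2) and SPARC (548 ± 37.3), and LUM stood in the sixth (50.9 ± 1.71). Exon length took in all annotated exons of a gene. With the longest coding transcript in its place THBS1 (77.8 ± 10.2) came before LUM (70.7 ± 2.47) in control and DCN had 17.6 ± 0.411 CPM per kb, and the other control places were as before.

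**Figure D4:**
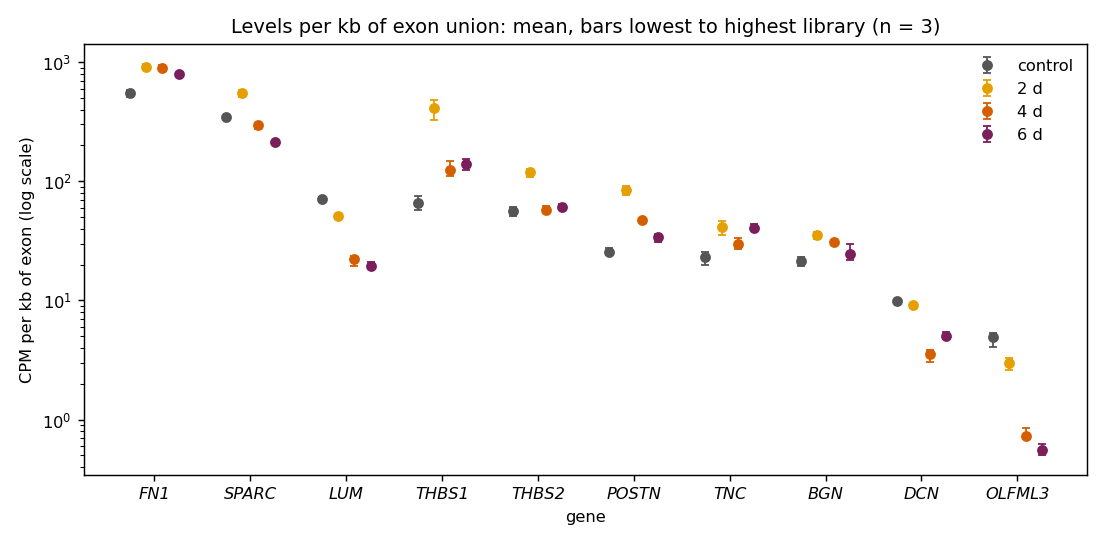
Level in CPM per kb of exon (y axis, log scale) of each gene, ordered by its control level (x axis), in control and after 2, 4 and 6 days, with points for means and bars from the lowest to the highest of 3 libraries. FN1 and SPARC lead in control at 556 and 349.6 CPM per kb, and OLFML3 is lowest in every group.

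Profiles over the 4 group means were compared by the root mean square difference of log2 levels, each centred on its own mean, as a description. Among the 45 pairs of the 10 genes, BGN and FN1 were the closest (0.14), DCN and LUM stood at 0.33, THBS1 and THBS2 at 0.55, and THBS1 and OLFML3 were farthest apart (1.65). Against all 9864 named genes of at least 10 CPM in their highest group, the nearest to FN1 were AP1B1 (0.023) and PLOD2 (0.029). PLOD2 encodes a lysyl hydroxylase that prepares collagen for cross-links and had 1098 CPM at day 2 and 692.5 CPM in control. Nearest to POSTN was PDGFA (0.044), a growth factor gene for fibroblasts, at 16.1 CPM at day 2 and 4.48 CPM in control, and FLNC came next (0.11). THBS1 was nearest to CRISPLD2 (0.044), which encodes a secreted protein and had 209 CPM at day 2 and 34.2 CPM in control. For THBS2 the nearest was CSRP1 (0.036), a LIM-domain gene of smooth muscle, and for SPARC it was MTSS2 (0.065). LUM was nearest to WFDC21P (0.049) and RCAN1 (0.069), the calcineurin inhibitor gene, which had 121 CPM at day 6 and 493 CPM in control. DCN was nearest to DDIT3 (0.11), a stress transcription factor gene, BGN to RNF181 (0.032) and TNC to ZNF252P (0.043). OLFML3 had no profile as close: the nearest were HES1 (0.16), CYP1B1 (0.26) and the matricellular gene CCN2 (0.33).

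The counts of related genes that follow stand beside 47.2%, 36.5% and 43.7% of all tested genes called at day 2, day 4 and day 6. Of 35 other matricellular genes 27 were tested, of which 15 rose and 5 fell at day 2, 8 rose and 9 fell at day 4, and 7 rose and 10 fell at day 6, with median log2 fold changes of 0.36, 0.023 and -0.094. TGFBI, which encodes an integrin ligand related to periostin, rose to 841 ± 45.4 CPM at day 2, against 310.1 ± 13.8 CPM in control (log2 fold change 1.44 ± 0.078, adjusted p = 1.47e-13), and at day 6 the rise was 0.48 ± 0.077. CCN2, the connective tissue growth factor gene, fell to 176 ± 3.41 CPM at day 6 against 1155 ± 71.0 CPM in control (-2.72 ± 0.094, adjusted p = 3.3e-17). Its relative CCN1 fell by 1.21 ± 0.073 at day 6 (adjusted p = 1.18e-12). EFEMP1, the fibulin-3 gene, fell to 23.6 ± 6.45 CPM at day 4 against 102 ± 5.08 CPM in control (-2.12 ± 0.14, adjusted p = 1.51e-10).

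Of 15 other small leucine-rich proteoglycan genes 11 were tested, of which 2 rose and 1 fell at day 2, 1 rose and 2 fell at day 4, and 4 rose and 1 fell at day 6, with medians of 0.56, 0.38 and 0.67. The share called was 27.3%, 27.3% and 45.5% at the 3 exposures, the last of them near the 43.7% of all genes. TSKU, the tsukushi gene, rose to 25.0 ± 0.988 CPM at day 2 against 8.78 ± 1.11 CPM in control (1.51 ± 0.12, adjusted p = 1.42e-10). PODN, the podocan gene, fell to 3.45 ± 1.40 CPM at day 6 against 9.88 ± 1.39 CPM in control (-1.50 ± 0.20, adjusted p = 9.82e-07). A list of 14 other genes was made for the olfactomedin domain, but it also held the multimerin genes MMRN1 and MMRN2. Of these 14 genes 6 were tested: 0 rose at any exposure, and 0, 2 and 3 fell at day 2, day 4 and day 6. OLFML2B, an olfactomedin-like gene, had a log2 fold change of -0.23 ± 0.13 at day 2 (adjusted p = 0.146), and it fell by 1.21 ± 0.14 at day 6 to 7.38 ± 0.822 CPM, against 17.1 ± 0.905 CPM in control.

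Genes of the receptors were mostly higher. Of 33 listed integrins, syndecans and other receptors 27 were tested, of which 19 rose and 3 fell at day 2, 16 rose and 4 fell at day 4, and 17 rose and 4 fell at day 6 (medians 0.60, 0.36 and 0.44). CD44, the hyaluronan receptor gene, rose to 879 ± 49.1, 944 ± 49.8 and 875 ± 18.9 CPM at day 2, day 4 and day 6, against 380.0 ± 12.1 CPM in control (adjusted p = 1.26e-12, 4.65e-13 and 1.47e-12). ITGA3, an integrin subunit gene, rose by 1.12 ± 0.077, 1.05 ± 0.077 and 1.09 ± 0.077 at the same exposures. SDC4, the gene of syndecan-4, a coreceptor for fibronectin, rose to 706 ± 16.4 CPM at day 2 against 295 ± 3.27 CPM in control, and at day 6 its log2 fold change was 0.14 ± 0.071 (adjusted p = 0.121). The proteoglycan receptor gene CSPG4 rose by 1.42 ± 0.092 at day 2 and by 0.87 ± 0.092 at day 6.

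Enzymes that build chondroitin and dermatan sulfate, the chains of decorin and biglycan, rose in 13, 11 and 11 of 23 tested cases at day 2, day 4 and day 6 and fell in 5, 2 and 3 (24 listed, medians 0.33, 0.21 and 0.18). CSGALNACT1, which starts the chondroitin chain, rose to 37.5 ± 1.73 CPM at day 6 against 13.5 ± 1.10 CPM in control (1.48 ± 0.11, adjusted p = 3.82e-11). The sulfotransferase gene CHST11 rose by 1.57 ± 0.14 at day 2 and by 1.51 ± 0.14 at day 6. UGDH, which makes the sugar precursor, rose by 0.21 ± 0.077 at day 2 (adjusted p = 0.0247) and fell by 0.52 ± 0.078 at day 6 (adjusted p = 6.91e-06).

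Other proteoglycan and hyaluronan genes rose in 11, 8 and 10 of 18 tested cases and fell in 3, 2 and 2 (22 listed, medians 0.76, 0.33 and 0.69). GPC1, the glypican-1 gene, rose to 159 ± 14.7 CPM at day 2 against 27.0 ± 3.93 CPM in control (2.56 ± 0.10, adjusted p = 7e-16). HAS2, a hyaluronan synthase gene, rose to 209.6 ± 13.4 CPM at day 6 against 37.2 ± 8.66 CPM in control (2.49 ± 0.13, adjusted p = 1.4e-12). SRGN, the serglycin gene, rose by 1.47 ± 0.077 at day 6. Among genes that cleave matrix proteins 7, 6 and 6 of 20 tested rose and 3, 7 and 6 fell (24 listed, medians 0.073, -0.056 and -0.038), and the share called at day 2, 10 of 20, was near the 47.2% of all genes. CTSS, the cathepsin S gene, rose to 14.0 ± 2.12 CPM at day 6 against 1.41 ± 0.388 CPM in control (3.31 ± 0.19, adjusted p = 4.8e-13), and BMP1, which encodes a procollagen C-proteinase, rose by 1.20 ± 0.094 at day 2. CTSL fell by 0.99 ± 0.087 at day 2.

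**Figure D5:**
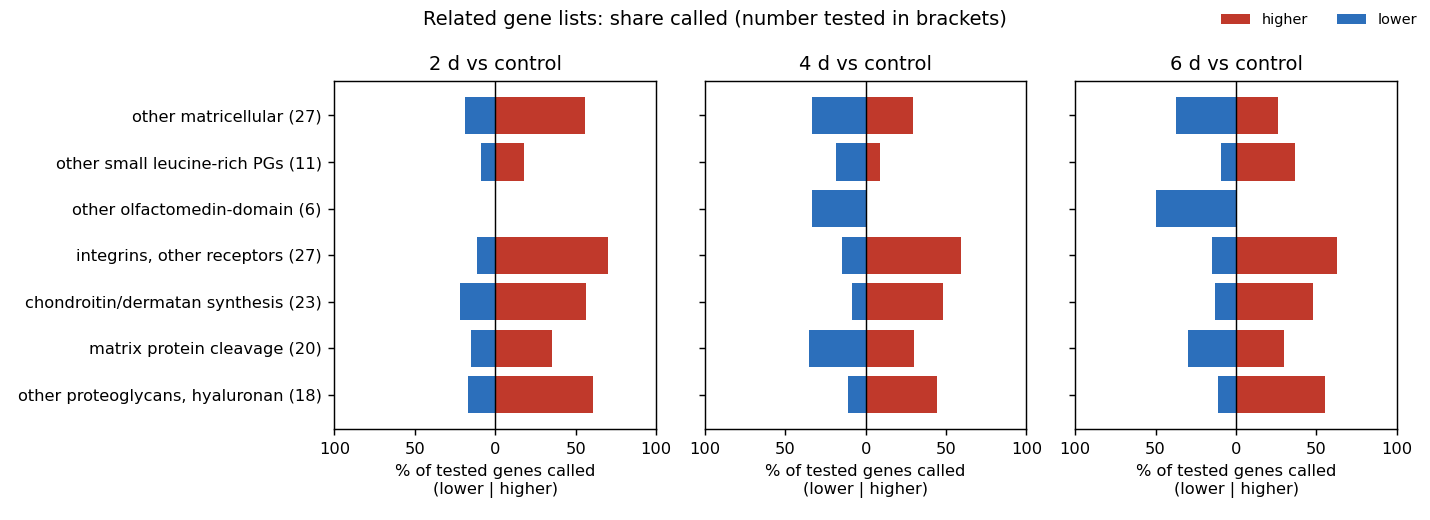
Share of tested genes called higher (right of 0) and lower (left of 0) in 7 lists of related genes (y axis, number tested in brackets) after 2, 4 and 6 days against control (x axis, percent). The olfactomedin-domain list also holds the multimerin genes MMRN1 and MMRN2. Receptor genes were called higher in 19, 16 and 17 of 27 cases, while other matricellular genes had 15 higher and 5 lower at day 2 and 7 higher and 10 lower at day 6.

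The summed levels of markers of other cell types differed in how far they moved with the exposures. Of all tested genes 23.8%, 18.8% and 22.0% were called higher than in control at day 2, day 4 and day 6. The shares called lower were 23.4%, 17.7% and 21.7%. With 3 to 6 markers tested per list, the counts called are descriptions only. Smooth muscle and myofibroblast markers, 6 of 7 tested, summed to 319 to 389 CPM in control, 699 to 748 CPM at day 2, 482 to 535 CPM at day 4 and 482 to 524 CPM at day 6, with 5, 2 and 2 called higher than in control at the 3 exposures and 0, 2 and 3 lower. Epithelial markers, 6 of 7 tested, summed to 94.9 to 128 CPM in control, 254 to 279 CPM at day 2, 87.3 to 114 CPM at day 4 and 83.5 to 90.1 CPM at day 6. They had 3, 1 and 1 called higher than in control at these exposures and 1, 2 and 2 lower. KRT18 held most of the day 2 sum (193 CPM, against 66.8 CPM in control). KRT8, KRT19 and CDH1 averaged 44.1, 22.1 and 6.59 CPM at day 2, against 27.9, 5.39 and 4.77 CPM in control. CLDN4 and ESRP1 averaged 2.38 and 0.372 CPM, against 2.12 and 0.0597 CPM. EPCAM, with 79 counts over all 12 libraries, averaged 0.185 CPM against 0.556 CPM. Endothelial markers, 4 of 7 tested, summed to 21.0 to 27.5 CPM and leukocyte markers, 3 of 7 tested, to 4.95 to 13.5 CPM over all libraries, CD3E having 1 count in all. Endothelial markers had 0, 2 and 1 called higher and 0, 2 and 2 lower at the 3 exposures. Leukocyte markers had 0, 1 and 1 higher and 0, 1 and 1 lower. The part of these markers in the changes of the 10 genes was not tested.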

How the data were processed

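Messenger RNA was sequenced in 12 libraries of AC16 cells. The authors deposited raw counts for 60607 versioned Ensembl IDs in a single table. Per the submitters' processing notes, fastp 0.23.2, Trimmomatic 0.38, STAR 2.7.8, HTSeq 0.13.5 and build GRCh38.p13 were used, with no role or order given. Strand handling is not given in the sources used here: SPARC, THBS1 and TNC share exon bases with opposite-strand genes, which held 227 to 429 counts each against 68855 or more for these 3 genes. Symbols were found for 60437 IDs, and positions are those of GENCODE 29 (GRCh38).

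Counts were tested with edgeR 4.0.16 (R 4.3.3) in 1 fit of all libraries with a mean per group (filterByExpr, minimum count 10 and total 15, TMM, robust glmQLFit, glmQLFTest, 8 residual degrees of freedom, common biological coefficient of variation 0.0887). The SE is the absolute log2 fold change over the square root of F. Ratios of counts had 0.5 added to each count. The procedure was tested on simulated data. No 2 libraries of the same group agreed within sampling noise (chi-square per gene 4.12 or more). The genes, lists and tests were chosen with earlier results of these data known, so counts over a list are descriptions. Named beside the 10 genes are up to 4 genes per list with the smallest p over the 4 groups and at least 10 CPM in the highest group, and up to 3 nearest profiles per gene, part of which are printed. Alternatives were RLE factors, scaling by library totals alone, no filter, 1 CPM in 3 libraries, DESeq2 1.42.0, a replicate block, fits of 2 groups alone and fits without each library in turn. A fit without the 2 libraries that stood apart in mitochondrial share and the second exon length were added after seeing the data. Depth limits OLFML3 most.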

Additional observations from a re-analysis of the deposited data

Results flagged for a closer look

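SPARC was singled out because its changes at different exposures had opposite signs and the difference itself was tested. Against the control it was higher at day 2 and lower at day 4 and day 6, each past the threshold. Its log2 fold change between day 4 and day 2 was -0.88 ± 0.075 (adjusted p = 2.02e-09) and between day 6 and day 2 -1.37 ± 0.076 (adjusted p = 7.11e-13, edgeR's quasi-likelihood test), with all 3 libraries of each longer exposure below all 3 of day 2.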

How the results depend on the processing

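Over 60 changes of single genes (10 genes in 6 comparisons) and 20 alternatives each, 1163 of 1200 values kept their direction and side of the threshold, 4 were no longer past it, 20 were newly past it and 13 had the other sign, all 13 among changes that were not called. The changed signs were in 3 results. THBS2 at day 4 against control was -0.019 with library totals alone, -0.049 without the 2 libraries with outlying mitochondrial share and -0.047 to 0.067 leaving out single libraries. FN1 between day 4 and day 2 was 0.054, 0.011 and -0.084 to 0.018 under the same settings. TNC between day 6 and day 2 was 0.14, 0.077 and -0.12 to 0.077. The count of all genes changed between day 6 and day 4, 1174, was 1837 in a fit of those 2 groups alone, 2027 without the 2 outlying libraries and 572 to 1842 leaving out single libraries. The cause was not tested. The counts of the 10 genes called stayed within 1.5 times of those reported under the alternatives, at 7 to 10 in the comparisons with control and 3 to 5 between day 6 and day 4. With scaling by library totals alone the all-gene median was -0.136 at day 2 against control, in place of -0.013, and 0.162 between day 6 and day 2, in place of 0.0027. This changed the split of all calls from 4122 higher and 4058 lower to 3203 and 5386, and from 3437 and 3977 to 5265 and 2538. For day 4 against day 2 it went from 2828 and 3203 to 3842 and 2443, and for day 6 against day 4 from 528 and 646 to 1006 and 350. Between groups the correlation of same-numbered libraries' deviations was -0.17 to 0.096, and 2 of 12 libraries correlated best with their own number. A pairing by number was thus not seen over all genes, but this check cannot exclude one, least of all for single genes. With a replicate block the counts of the 10 genes called were 9, 9 and 8 against control at day 2, 4 and 6, and 8, 4 and 8 between day 4 and day 2, day 6 and day 4, and day 6 and day 2, the numbers found without it. Over all genes the block gave 962 changed genes between day 6 and day 4 and 7950 at day 2, and the 3 ratios had an adjusted p of 0.00521 (exact permutation within numbers).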
